A study of Arabidopsis thaliana with 50 samples.

Results

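A stretch of the upper arm of chromosome 5 of Arabidopsis thaliana was described, made up of 161 of the 18231 genes that the authors' deposited table lists. Its members were chosen by identifier, as every listed gene from AT5G03406 to AT5G05250 except AT5G03470, AT5G04200 and AT5G04900, and the bounds came from an earlier scan of the values of the double mutants b'γζ and b'γ sid2 in these data. The values of those double mutants are therefore given as a description, with no test. RNA came from fully expanded rosette leaves of 7-week-old plants of accession Col-0, grown in 8 h of light per day and divided into an apical and a basal part. The lines were wild type, pp2a-b'γ (b'γ), the double mutants pp2a-b'γζ (b'γζ) and pp2a-b'γ sid2 (b'γ sid2), and a complemented line, which carries P35S:PP2A-B'γ in pp2a-b'γ. All 4 mutant lines thus carry the pp2a-b'γ lesion, and the transgene of the complemented line is driven by a constitutive viral promoter rather than its own. The other 3 mutant lines are called the lines without the transgene below. Every line was sampled as 5 apical and 5 basal pools, 10 groups and 50 pools in all, with 7 leaf parts in a pool, and the apical and basal pools of a pair came from the same leaves. Per the labels, apical parts of b'γ were yellowing and dying, while its basal parts looked healthy.

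The lesions concern B' regulatory subunits of protein phosphatase 2A, which steer the catalytic subunit of this phosphatase to its targets, and SID2 (ICS1), the enzyme that makes most pathogen-induced salicylic acid. Genes that lie next to each other on a plant chromosome usually have unrelated functions and promoters, and each is mostly transcribed on its own. The stretch holds such a mixture: immune receptors and kinases, chromatin enzymes, plastid enzymes, trafficking and cell wall genes.

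By RefSeq's annotation of build TAIR10.1, the members span chr5:839754-1558486, a length of 719 kb. All 161 members were found there by locus identifier. The span holds 237 annotated loci, of which 203 are protein-coding, and 156 of those are members. Another 44 protein-coding loci of the span are not listed in the authors' deposited table and have no value here. Every listed gene has an authors' corrected p for genotype below 0.05, so a tested gene without such a line difference is missing. Listed genes made up 78.3% of the protein-coding loci of the span, against 63.6% of the 27444 nuclear protein-coding loci of the genome. Raised values in the double mutants, which set the bounds, can themselves bring a gene past this filter. This share and the counts of members below are therefore tied to the filter. The other members were 2 transcribed pseudogenes, 1 pseudogene, 1 long non-coding RNA and 1 microRNA precursor. A further locus overlaps 58 of the members on the chromosome, for 52 of them on the other strand, and reads of such pairs can be told apart only where counting used the strand, which is not given in the sources used here.

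The sequences of 4 promoters are shown because these genes set the bounds or the extremes of the stretch, and each is the 250 bases before the annotated start, read 5′ to 3′ on the gene's own strand (RefSeq, TAIR10.1). AT5G03406 is the first member, with its promoter at chr5:839504-839753 on the plus strand. AT5G05250 is the last member, at chr5:1558487-1558736 on the minus strand. AT5G04390 had the largest difference between b'γ and the complemented line, at chr5:1238570-1238819 on the plus strand. AT5G03760 (CSLA9) had the lowest value of any member in b'γ, at chr5:990631-990880 on the minus strand. Capitals mark TTGAC, the core of the W-box bound by WRKY factors of defence and senescence, and CACGTG, the G-box bound by bHLH and bZIP factors, on either strand. None of these windows overlaps an annotated gene.
AT5G03406 promoter: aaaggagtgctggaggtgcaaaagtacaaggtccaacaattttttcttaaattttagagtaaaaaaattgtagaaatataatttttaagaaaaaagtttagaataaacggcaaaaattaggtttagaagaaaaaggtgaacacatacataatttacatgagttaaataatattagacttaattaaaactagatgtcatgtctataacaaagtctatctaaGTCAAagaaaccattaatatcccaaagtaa
AT5G05250 promoter: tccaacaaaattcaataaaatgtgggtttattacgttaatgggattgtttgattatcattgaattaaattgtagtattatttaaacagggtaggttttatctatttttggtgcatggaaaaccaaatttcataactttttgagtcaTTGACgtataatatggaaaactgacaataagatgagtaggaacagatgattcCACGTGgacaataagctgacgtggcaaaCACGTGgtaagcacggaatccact
AT5G04390 promoter: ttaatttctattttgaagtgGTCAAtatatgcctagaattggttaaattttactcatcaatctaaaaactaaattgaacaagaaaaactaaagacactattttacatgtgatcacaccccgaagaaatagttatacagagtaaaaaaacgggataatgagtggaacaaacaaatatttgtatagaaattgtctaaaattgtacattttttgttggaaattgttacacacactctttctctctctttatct
AT5G03760 promoter: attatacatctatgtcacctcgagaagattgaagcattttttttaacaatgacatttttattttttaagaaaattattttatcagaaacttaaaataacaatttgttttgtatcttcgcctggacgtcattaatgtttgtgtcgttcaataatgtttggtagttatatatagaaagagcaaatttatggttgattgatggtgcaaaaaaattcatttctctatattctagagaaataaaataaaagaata

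The windows of both bounding genes and of AT5G04390 hold the W-box core, that of AT5G05250 also holds the G-box, and that of CSLA9 holds neither. The W-box core occurred in 67 of the 156 member promoters of the same length, or 42.9%, against 44.9% of 27443 promoters of the genome. The G-box occurred in 14, or 8.97%, against 6.49%, and the TATA-box letters TATAAA occurred in 63, or 40.4%, against 47.3%. The promoters of the stretch thus held these letters about as often as promoters at large.

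A pair of mature microRNAs is shown because their precursor, MIR822A, is the 1 microRNA gene of the stretch and ran high in the double mutants and low in b'γ. ath-miR822-3p lies at chr5:897067-897087 and ath-miR822-5p at chr5:897287-897307, both on the minus strand, and capitals mark the seed, bases 2 to 8, in genome letters.
ath-miR822-3p: tGTGCAAAtgctttctacagg
ath-miR822-5p: tGCGGGAAgcatttgcacatg
The libraries were made from polyadenylated RNA, so the values of MIR822A are those of its primary transcript and not of these mature forms. Its authors' deposited log2 fold changes were -1.16 in b'γ, 1.48 in b'γζ, 1.26 in b'γ sid2 and 0.29 in complemented plants.

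Values below are log2 fold changes from the authors' deposited table, each of a line's apical parts against those of wild type, on which 1 is a doubling. The table holds no value per library, so no SD between pools can be given, and depth is unknown. All 4 comparisons share the same wild-type pools. In the authors' deposited values, members of the stretch centred near a doubling in both double mutants and in b'γ, and near no change in the complemented line. The median was 0.96 in b'γ, with quartiles of 0.34 and 1.37. It was 1.0 in b'γζ, with quartiles of 0.78 and 1.18, and 1.02 in b'γ sid2, with quartiles of 0.72 and 1.25. In the complemented line the median was 0.01, with quartiles of -0.19 and 0.16. Over all listed genes the medians of these comparisons were 0.02, -0.01, 0.02 and 0.

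**Figure D1:**
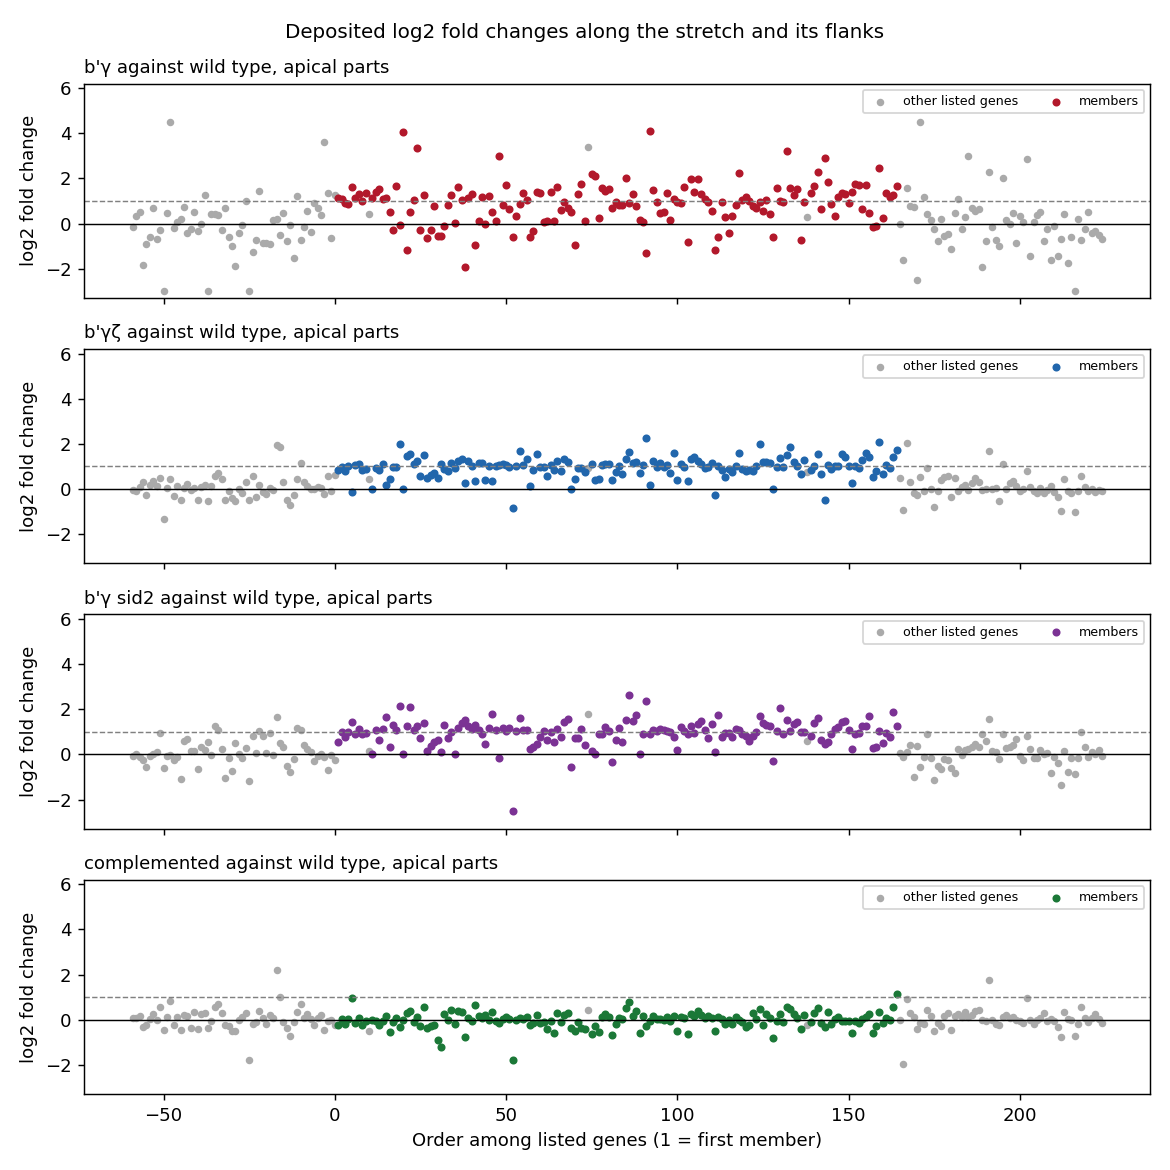
Log2 fold change in the authors' deposited table, apical parts against apical wild type (vertical axes, values beyond -3 and 4.5 placed there) by order among listed genes (horizontal axes, 1 = first member), 1 panel per line; coloured points are members, and grey points are listed genes of the flanks and the 3 excepted genes inside the stretch. Members of b'γζ and b'γ sid2 form a band near 1 (dashed line), those of b'γ scatter widely around a median of 0.96, and those of the complemented line lie around 0.01.

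At least 2-fold higher values in b'γ were held by 77 members, where 17.0% of all listed genes reached this size. In b'γζ the count was 81 members, against 4.69% of listed genes, and in b'γ sid2 it was 86, against 6.55%. At least 1.5-fold higher were 110 members in b'γ (26.5% of listed genes), 133 and 128 in the double mutants b'γζ and b'γ sid2 (9.82% and 13.0%), and 4 in complemented plants (6.72%). Above 0 were 136 members in b'γ (50.8%), 155 and 154 in those double mutants (47.6% and 51.8%), and 82 in complemented plants (49.4%). For the double mutants these counts restate how the bounds were found. Those of b'γ and the complemented line share their wild-type pools with the comparisons that set the bounds, so they are not independent of them. In the complemented line 1 member, AT5G05250, was at least 2-fold higher, against 2.63% of listed genes. At least 2-fold lower values were held by 4 members in b'γ (16.2% of listed genes), 0 in b'γζ (2.92%), 1 in b'γ sid2 (5.56%) and 2 in complemented plants (2.22%).

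In the lines without the transgene, members lay near the doubling itself more often than listed genes did. For the double mutants this again restates how the bounds were found. Within 0.25 of a log2 fold change of 1 lay 90 members in b'γζ, against 4.54% of listed genes, and 75 in b'γ sid2, against 5.42%. In b'γ 47 members lay there, against 8.22%, and in the complemented line 3 did, against 3.07%. The interquartile range of the members was 0.40 (b'γζ) and 0.53 (b'γ sid2), close to the 0.41 and 0.55 over all listed genes. In b'γ it was 1.03 and over all listed genes 1.28. The whole distribution of the stretch was therefore displaced, with about the width that listed genes have in the same line, as the plot of distributions by line shows.

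**Figure D2:**
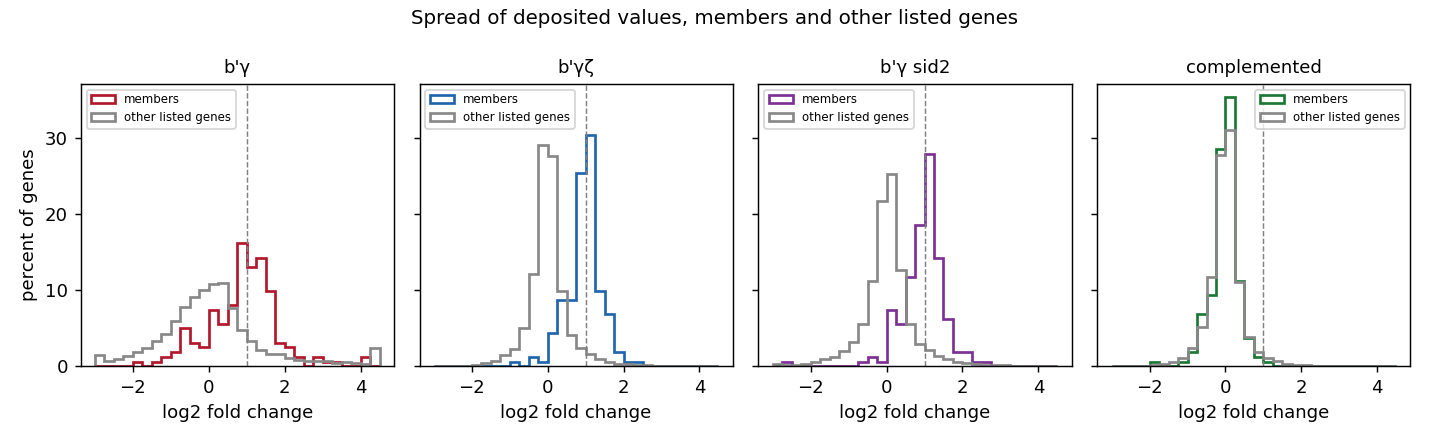
Percent of genes (vertical axis) by authors' deposited log2 fold change (horizontal axes, values beyond -3 and 4.5 counted in the end bins) in each line, for the 161 members (coloured) and the 18070 other listed genes (grey), with a dashed line at a doubling. The members' medians are 0.96, 1.0, 1.02 and 0.01 in the panels from left to right, against 0.01, -0.01, 0.01 and 0 over the other listed genes.

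Along the chromosome the displacement began and ended within a few genes. The first 5 members had medians of 0.85 (b'γζ) and 0.98 (b'γ sid2), whereas the 5 listed genes just before AT5G03406 had 0.05 and -0.13. The last listed gene before the bound, AT5G03380, lies 5204 bp away and had 1.27 in b'γ, 0.64 in b'γζ, -0.26 in b'γ sid2 and -0.23 in complemented plants. AT5G03406 itself had 1.12, 0.85, 0.53 and -0.24. At the other end, the last 5 members had medians of 1.07 (b'γζ) and 0.97 (b'γ sid2), and the next 5 listed genes had 0.29 and 0.06. AT5G05250 had 1.67, 1.74, 1.24 and 1.15, the highest value of any member in the complemented line. Its neighbour beyond the bound, CYP79A2, which makes phenylacetaldoxime from phenylalanine, starts 1121 bp away and had 0, 0.48, 0.06 and 0. No levels are given, so whether CYP79A2 was detected where its value was 0 is not known. In b'γ, where the values spread widely, the medians just outside were 1.27 before and 0.74 after the stretch, so the bounds were less distinct in that line. A further neighbour, AT5G05300, was at 2.05 in b'γζ but 0.09 in b'γ sid2. These are the values inside and outside the bounds that chose the members, and they carry no test.

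**Figure D3:**
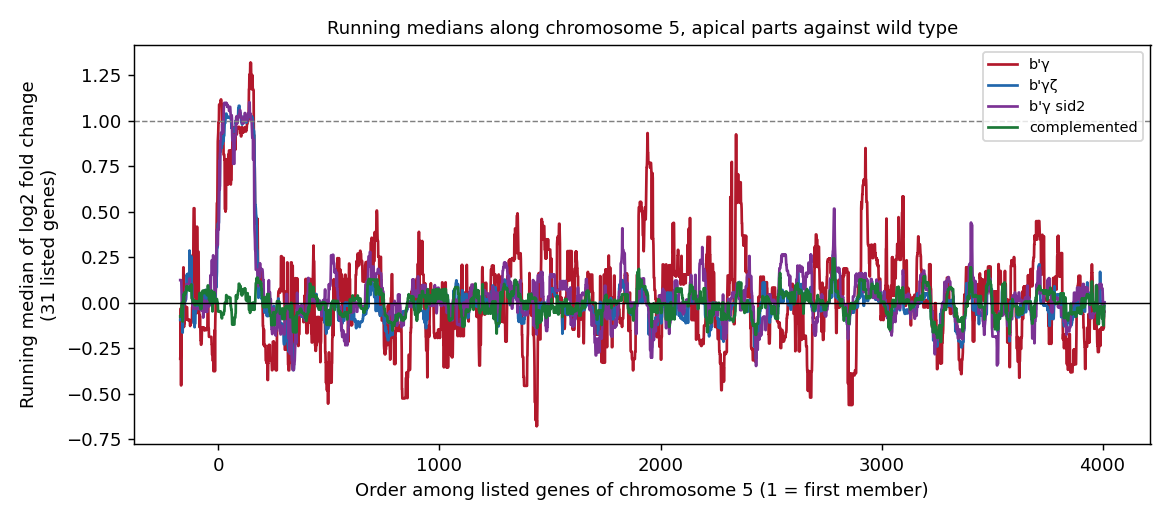
Running median of the authors' deposited log2 fold change over 31 listed genes (vertical axis) by order among the listed genes of chromosome 5 (horizontal axis, 1 = first member), 1 curve per line, with a dashed line at a doubling. In the stretch the curve of b'γ reaches 1.32, those of the double mutants b'γζ and b'γ sid2 reach 1.08 and 1.10, and that of the complemented line reaches 0.10. The curves of the double mutants show the values that set the bounds.

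Running medians of 31 neighbouring listed genes put the stretch beside the rest of the genome, without the 31 listed genes beyond each bound. In b'γζ the highest value in the stretch was 1.08, centred on AT5G04390, and the highest elsewhere was 0.47, on chromosome 1 at AT1G61500. In b'γ sid2 these values were 1.10 at AT5G04910 and 0.52 at AT5G50715. For the double mutants, that the stretch ranks first restates how the bounds were found. In b'γ the stretch reached 1.32 at AT5G04980, but windows on chromosome 1 around AT1G51760 reached 1.73. The complemented line reached 0.10 in the stretch and 0.35 elsewhere. For the difference of b'γ minus the complemented line, described below, the stretch reached 1.17 at AT5G05010, again less than the 1.36 around AT1G51760. In consecutive blocks of 20 or 21 members, medians ran from 0.92 to 1.11 in b'γζ and from 0.82 to 1.15 in b'γ sid2. They ran from 0.45 to 1.21 in b'γ and from -0.15 to 0.15 in the complemented line. Each of the 8 blocks thus lay higher in b'γ than any block did in the complemented line. The blocks of the double mutants lay higher too, which restates how the bounds were found.

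The difference of b'γ sid2 minus b'γζ had a median of 0.01 over the members and quartiles of -0.16 and 0.14, beside a median of 0.01 and quartiles of -0.18 and 0.20 over all listed genes. The differences of b'γ minus b'γζ had a median of -0.02, with quartiles of -0.60 and 0.36, beside 0.01, -0.59 and 0.53 over all listed genes. Those of b'γ minus b'γ sid2 had a median of -0.02, with quartiles of -0.65 and 0.45, beside 0.03, -0.63 and 0.59. The differences among these lines were thus centred near 0 in the stretch as they were over all listed genes. Since the double mutants chose the members, these differences are not tested.

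The comparison of b'γ with the complemented line used the values of libraries that did not set the bounds. The error of its test, given below, does draw on the double mutants. The pattern of b'γ and the complemented line in the stretch was also already known when its members were chosen. The wild-type value cancels in this difference, so it is the log2 difference between apical parts of these lines. It had a median of 0.93 over the members, with quartiles of 0.44 and 1.37, against a median of 0.02 with quartiles of -0.55 and 0.55 over all listed genes. Of the members, 143 were above 0 and 18 below, where 51.0% of listed genes were above 0. At least 2-fold higher values were held by 77 members, against 15.1% of listed genes, and at least 2-fold lower values by 3, against 12.9%. Within 0.25 of a log2 difference of 1 lay 45 members, against 7.35%.

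Error for this difference was taken from the authors' deposited p-values of genotype and interaction, which limit the residual variance of each gene under an assumed balanced linear model. The test used the largest variance they allow (largest-error contrast test, Benjamini-Hochberg adjusted over 25801 genes), and the standard errors below, given after ±, are the largest allowed ones. This limit draws on the values of all lines, so the double mutants that chose the members enter it. Where the limit was finite, the largest allowed standard error had a median of 0.15 over members, against 0.416 over all listed genes. Values given below as higher or lower by an amount passed this test at an adjusted p under 0.05, and each compares 5 apical pools of b'γ with 5 of the complemented line. By this test 104 of the 161 members, or 64.6%, were higher in b'γ than in the complemented line, where 9.97% of listed genes were. The smaller error limits of the members enter this share, so it is partly tied to how they were chosen. CYP77A4 was the 1 member that was lower, where 8.05% of listed genes were, and 56 members did not pass, of which 39 had a difference above 0 and 17 below. A gene whose lines differ mainly in the apical parts can fail this test at a large difference, so failing it does not show that the lines were alike. The test takes the 50 pools as independent although apical and basal pools share leaves.

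The largest differences included genes of quite different kinds. AT5G03610, a GDSL-type esterase or lipase gene at chr5:915385-918485, had authors' deposited values of 3.36 in b'γ, 1.24 in b'γζ, 1.27 in b'γ sid2 and 0.13 in complemented plants. It was higher in b'γ than in the complemented line by 3.23 ± 0.384. All 3 lines without the transgene lay above the complemented line, and b'γ lay furthest above. AT5G04860 had 3.23, 1.49, 1.51 and 0.54 and was higher in b'γ by 2.69 ± 0.268. NTMC2T1.3, a membrane-bound lipid-transfer type protein with calcium-binding domains, had 2.12, 0.38, 0.02 and -0.27, so that it stood out in b'γ alone among these values, and was higher by 2.40 ± 0.222. AT5G03890 had 3.0, 1.08, -0.14 and -0.16 and was higher by 3.15 ± 0.846.

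Several of the members with the largest differences did not pass. AT5G04390, a C2H2-type zinc finger gene at chr5:1238820-1240517, had the authors' deposited values 4.10 in b'γ, 0.16 in b'γζ, 0.90 in b'γ sid2 and -0.06 in complemented plants. Its difference of 4.16 had a largest SE of 12.9, so the deposited p-values set no useful limit on its error. AT5G03550 at chr5:895655-896433 was at 4.06 in b'γ and exactly 0 in the other 3 comparisons, and no limit on its error could be had. NAS1, which makes the metal chelator nicotianamine, had 2.89, -0.50, 0.45 and -0.30, and its difference of 3.19 ± 1.56 did not pass. AT5G04210, a CCCH-type zinc finger gene, had a difference of 2.86 ± 2.11 and ACA3, an alpha-type carbonic anhydrase, had 2.13 ± 0.945, and neither passed. Of these 5, ACA3 alone was near a doubling in both double mutants, with 0.92 and 1.12.

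The 5 smallest differences were below 0. CYP77A4, a cytochrome P450 that acts on fatty acids, had -0.58 in b'γ, 1.03 in b'γζ, 1.73 in b'γ sid2 and 0.11 in complemented plants. It was lower in b'γ than in the complemented line by a log2 difference of -0.70 ± 0.21. CSLA9, a glucomannan synthase, had -1.94, 0.27, 1.52 and -0.78, and its difference of -1.16 ± 0.522 did not pass. NAMT1, a methyltransferase gene, had -1.28, 2.27, 2.38 and -0.29, with a difference of -1.0. MIR822A had a difference of -1.44 and AT5G03795 had -1.61, and the test was passed by neither of them nor by NAMT1. NAMT1, CYP77A4 and, by its values given earlier, MIR822A were thus at or above a doubling in both double mutants and below wild type in b'γ.

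Other members were among the highest or lowest of a deposited comparison. In b'γ sid2 the lowest was AT5G03920, with -2.50, beside -1.76 in complemented plants, -0.85 in b'γζ and -0.60 in b'γ. It was thus below wild type in all 4 lines. The highest in b'γ sid2 was AT5G04310, a pectate lyase gene, with 2.65, beside 0.92, 1.62 and 0.79. ATIPS2, a phosphate starvation transcript that RefSeq annotates as protein-coding, had -0.07 in b'γ, 1.99 in b'γζ, 2.13 in b'γ sid2 and -0.34 in complemented plants. AT5G03668 and AT5G03670, which overlap on opposite strands, had -0.88 and -1.23 in the complemented line and -0.56 each in b'γ. AT5G04250, an OTU-type protease gene, was at 0.40 (b'γζ) and -0.33 (b'γ sid2), yet was higher in b'γ (0.71) than in the complemented line (-0.66) by 1.37 ± 0.151.

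The roles below were grouped into 4 lists of 61 genes of the span, of which 55 are listed. Of the 10 signalling genes, 7 were higher in b'γ than in the complemented line by this test and 3 did not pass, with a median difference of 1.13 against 0.02 over all listed genes. ADR1-L2, a helper immune receptor at chr5:1360589-1363907, had 2.23 in b'γ, 1.60 in b'γζ, 1.07 in b'γ sid2 and 0.01 in complemented plants in the authors' deposited table. It was higher by 2.23 ± 0.337. EDR4, a regulator of powdery mildew resistance, had 2.45, 2.08, 1.04 and 0.34, and was higher by 2.11 ± 0.386. These immune genes stood furthest above the doubling in b'γ and closest to it in b'γ sid2.

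CTR1, the Raf-like kinase that holds ethylene signalling off, had 1.62, 1.26, 1.18 and 0.40 in the same order of lines and was higher by 1.22 ± 0.086. PDK1, which activates AGC kinases, had 0.91, 1.11, 1.23 and 0.12 and was higher by 0.80 ± 0.0793. The calcium-dependent kinase CPK1 was higher by 1.10, the calmodulin-like CML50 by 1.41 and the calmodulin-binding PICBP by 1.17. Not passing were PKS4, a phytochrome signalling protein, with a difference of 0.50, the receptor-like kinase RUL1 with 0.22 and the virus-restricting RTM2 with -0.33. RUL1 had 0.45 in b'γ but 1.41 (b'γζ) and 1.69 (b'γ sid2), and RTM2 had -0.73, 0.67 and 1.0.

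**Figure D4:**
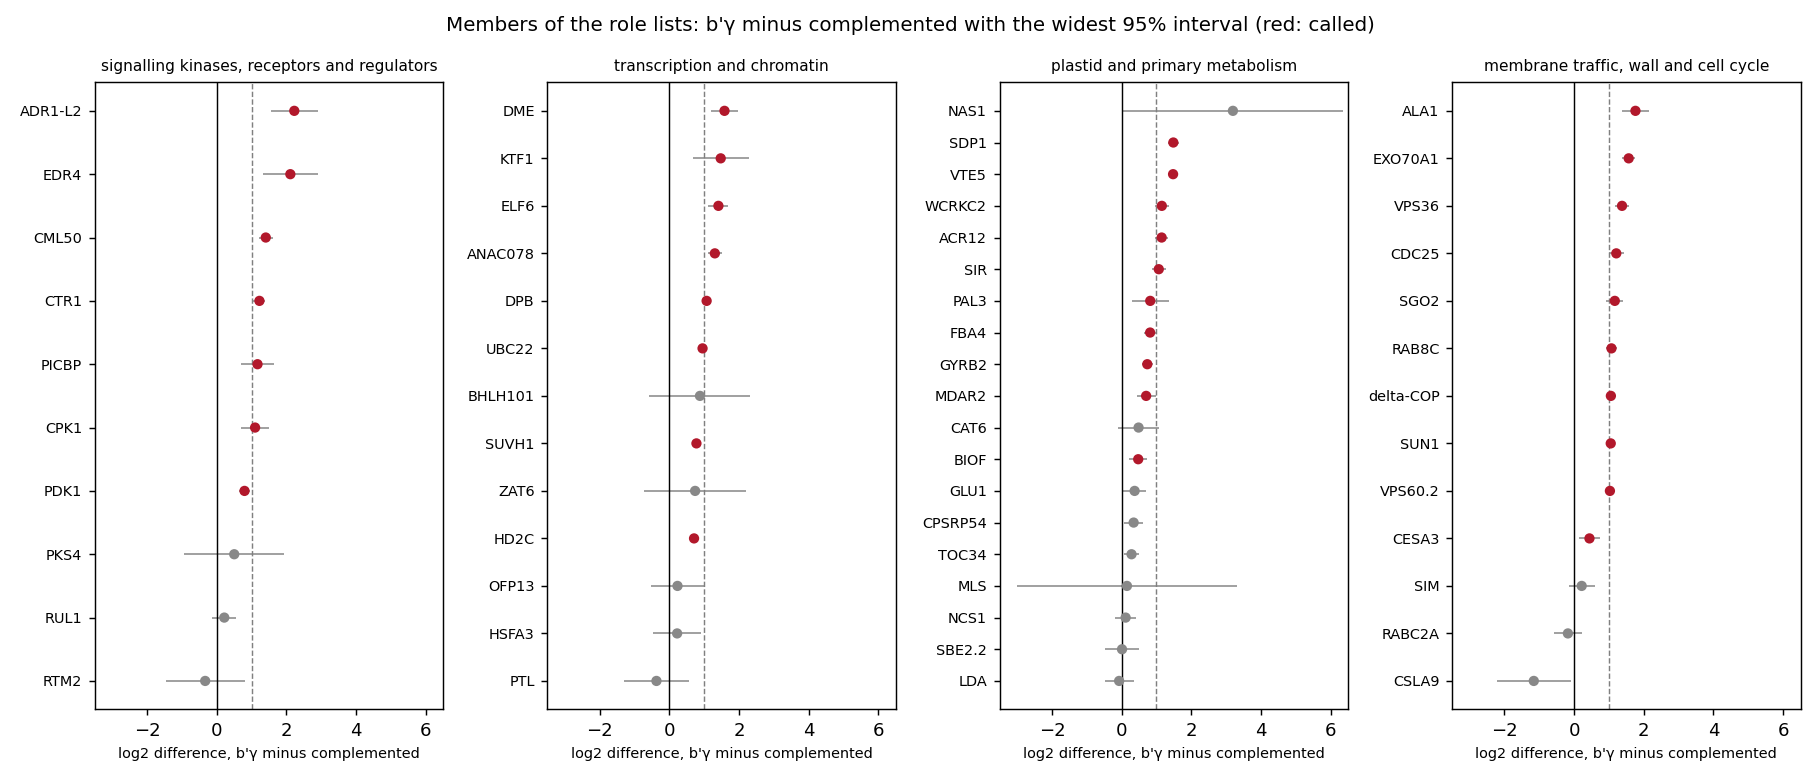
Log2 difference of b'γ minus the complemented line (horizontal axes) for the 55 listed genes of the 4 role lists (vertical axes, 1 panel per list), from the authors' deposited values; bars are the widest 95% intervals that the deposited p-values allow, red points passed the largest-error contrast test, grey points did not, and the dashed line is a doubling. Of 10, 13, 19 and 13 genes, 7, 8, 10 and 10 are red, all on the side of b'γ, and the list medians are 1.13, 0.88, 0.70 and 1.06.

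Of 15 genes of transcription and chromatin, 13 are listed, and 8 of these were higher in b'γ than in the complemented line while 5 did not pass, with a median difference of 0.88. All but 2 of these 8, DPB and ANAC078, act on chromatin, DNA methylation or ubiquitin. DME, a DNA glycosylase that removes methylated cytosine, had 1.98 in b'γ, 1.23 in b'γζ, 1.36 in b'γ sid2 and 0.39 in complemented plants, and was higher by 1.59 ± 0.193. ELF6, a histone demethylase, had 1.52, 1.09, 1.02 and 0.10 and was higher by 1.41 ± 0.141. DPB, the dimer partner of E2F factors, lay within 0.1 of a doubling in all 3 lines without the transgene, with 1.09, 0.96 and 1.0, and at 0.01 in the complemented line, and was higher by 1.07 ± 0.0676.

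KTF1, of RNA-directed DNA methylation, was higher by 1.48, ANAC078, a NAC factor, by 1.31, UBC22, a ubiquitin-conjugating enzyme, by 0.96, SUVH1, a reader of methylated DNA, by 0.78 and HD2C, a plant-type histone deacetylase, by 0.71. The 5 that did not pass were BHLH101 of iron deficiency (0.88), the zinc finger factor ZAT6 (0.74), the heat stress factor HSFA3 (0.23), OFP13 (0.24) and the petal and sepal factor PTL (-0.37). HSFA3 had 0.92 in b'γζ, 0.04 in b'γ and 0.02 in b'γ sid2, so it was near a doubling in b'γζ alone. LMI1 and ANAC077 are not listed.

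Of 20 genes of plastids and primary metabolism, 19 are listed, and 10 were higher in b'γ than in the complemented line while 9 did not pass, with a median difference of 0.70. VTE5, the phytol kinase of tocopherol synthesis at chr5:1279577-1281746, had 0.96 in b'γ, 0.42 in b'γζ, 0.19 in b'γ sid2 and -0.52 in complemented plants. It was higher by 1.48 ± 0.0645, although its values in the double mutants were below most of the stretch. SDP1, a triacylglycerol lipase, had 1.34, 0.98, 0.76 and -0.14 and was higher by 1.48 ± 0.0765. SIR, the plastid sulfite reductase, had 1.29, 1.08, 1.47 and 0.22 and was higher by 1.07 ± 0.097.

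The other members of this list that passed were the thioredoxin-like WCRKC2 and the ACT-domain protein ACR12 (each 1.15), the aldolase FBA4 and the phenylalanine ammonia-lyase PAL3 (each 0.82), the DNA gyrase subunit GYRB2 (0.74), the ascorbate-recycling MDAR2 (0.70) and BIOF of biotin synthesis (0.48). PAL3 and BIOF no longer passed where values were centred on the reference genes, with 0.64 and 0.29. Photosynthetic and starch genes were among those that did not pass. GLU1, the ferredoxin-dependent glutamate synthase of photorespiration, had 0.68 in b'γ, 1.21 in b'γζ, 1.58 in b'γ sid2 and 0.30 in complemented plants, and a difference of 0.37 with a widest unadjusted 95% interval of 0.03 to 0.71. TOC34, a receptor of the plastid import machinery, had 0.34, 1.04, 1.13 and 0.05, and its difference of 0.28 had such an interval of 0.06 to 0.51. CPSRP54, which guides proteins to the thylakoid, had 0.33, 1.01, 1.05 and -0.01, and a difference of 0.34 ± 0.134. The starch enzymes LDA, with 0.09, 1.08, 0.92 and 0.16, and SBE2.2, with -0.27, 0.62, 0.38 and -0.28, had differences of -0.07 and 0.01. Their widest intervals, -0.49 to 0.34 and -0.48 to 0.51, do not hold a doubling. LDA, TOC34 and CPSRP54 were thus near a doubling in both double mutants and at 0.34 or less in b'γ. The malate synthase MLS, the amino acid carrier CAT6 and the nucleobase carrier NCS1 had differences of 0.15, 0.49 and 0.11 and did not pass either, and FPN2 is not listed.

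Of 16 genes of membrane traffic, cell wall and cell cycle, 13 are listed, and 10 were higher in b'γ than in the complemented line while 3 did not pass, with a median difference of 1.06. The coatomer subunit delta-COP at chr5:1476533-1480197 had 1.17 in b'γ, 1.02 in b'γζ, 1.2 in b'γ sid2 and 0.12 in complemented plants, and was higher by 1.06 ± 0.0441. EXO70A1, a subunit of the exocyst, had 1.65, 0.96, 1.10 and 0.08 and was higher by 1.57 ± 0.0927. SUN1, of the nuclear envelope, had 0.88, 0.87, 0.90 and -0.17 and was higher by 1.05 ± 0.0668.

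The lipid flippase ALA1 was higher by 1.76, the ESCRT subunits VPS36 by 1.38 and VPS60.2 by 1.03, the CDC25-type phosphatase by 1.21, the cohesin protector SGO2 by 1.17, the Rab GTPase RAB8C by 1.07 and the cellulose synthase CESA3 by 0.44. CESA3 had -0.15 in b'γ, 0.54 in b'γζ, 0.29 in b'γ sid2 and -0.59 in complemented plants and no longer passed where values were centred on all listed genes. SIM, an inhibitor of cyclin-dependent kinases, had a difference of 0.22 and RABC2A had -0.18, and neither passed. Both were near a doubling in the double mutants, SIM with 0.73 and 0.98 and RABC2A with 0.99 and 1.30. ATG18E, AT5G04960 and AT5G04970 are not listed. Among the 106 members in no role list, 69 were higher, 1 lower and 36 did not pass, with a median difference of 0.93, much as in the lists.

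The difference between b'γ and the complemented line was spread over the whole stretch and both strands. By block of 20 or 21 members, the median difference ran from 0.69 to 1.18 and the number of members higher by this test from 10 to 16. The 85 genes on the minus strand had a median of 0.86 with 52 higher, and the 76 on the plus strand had 1.04 with 52 higher. Among the first 5 members 4 were higher, AT5G03406 by 1.36, DPB by 1.07, AT5G03420 by 1.10 and AT5G03430 by 0.86, while AT5G03435 did not pass. Among the last 5, AT5G05200 was higher by 0.40, AT5G05210 by 1.28, AT5G05230 by 1.17 and AT5G05240 by 0.67, while AT5G05250 did not pass. AT5G05240 no longer passed under either centring (0.65 and 0.48) nor AT5G05200 when centred on the reference genes (0.22), which leaves AT5G05210 and AT5G05230. Of the 5 listed genes just before the stretch 3 were higher by the same test, and of the 5 just after it 1 was. Their median differences were 1.42 before, beside 1.07 in the first 5 members, and 0.51 after, beside 0.67 in the last 5, so this difference showed no step at the bounds over these few genes. Of the 20 listed genes on each side, 5 were higher and 3 lower before, and 3 were higher and 1 lower after, with median differences of 0.13 and 0.14. Of the 3 genes excepted from the stretch, AT5G03470 (B'α) was higher by 0.93 and AT5G04900 (NOL) by 0.53, and AT5G04200 (MC9) did not pass.

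Basal parts have no fold changes in the authors' deposited table, but its p-values carry some information on them. The interaction of genotype and leaf part had a corrected p under 0.05 for 58 of 161 members, or 36.0%, against 42.4% of listed genes. The term for leaf part reached this for 84, or 52.2%, against 54.1%. Of the 103 members without such an interaction, 69 were higher in b'γ than in the complemented line, and of the 58 with it, 35 were. The largest-error contrast test takes its error from the same interaction p-values, so this split gives no separate information on basal parts. F values computed from the deposited p-values under the assumed balanced model also bound the spread of line means in basal parts relative to apical parts. The lowest ratio they allow had a median of 0.695 over members, with quartiles of 0.540 and 0.824, against 0.352 over listed genes. It was above 0.5 for 125 members, or 77.6%, against 28.3% of listed genes. For SUN1 the allowed range was 0.939 to 1.06 and for VTE5 0.921 to 1.09, so that in basal parts the lines differed by about as much as in apical parts. For AT5G04390 the allowed range, 0.0412 to 24.3, leaves the ratio undetermined. These ratios include the double mutants, which chose the members, and are a description with no test.

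**Figure D5:**
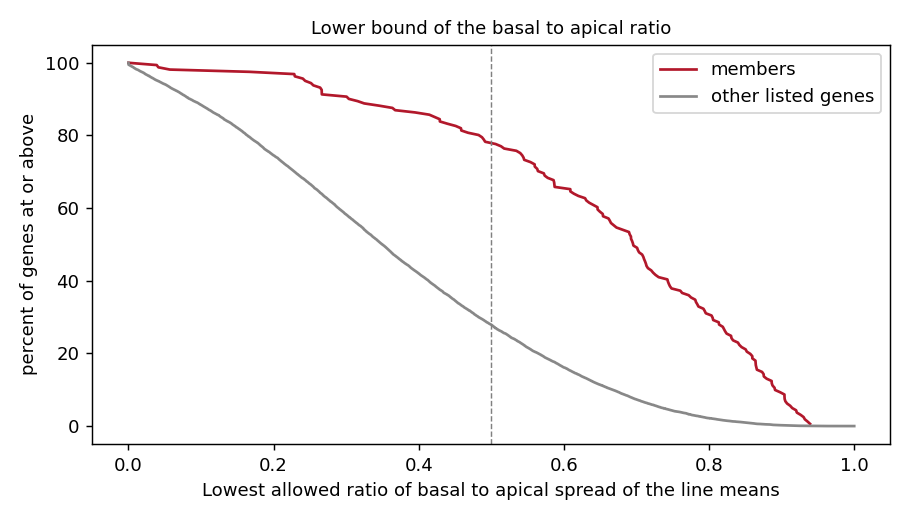
Percent of genes (vertical axis) at or above each value of the lowest ratio of basal to apical spread of the line means that the authors' deposited p-values allow (horizontal axis, no unit), for the members (red) and the other listed genes (grey), with a dashed line at 0.5. The members' curve lies to the right, with a median of 0.695 and 125 of 161 members above 0.5.

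Facts of the whole data set bear on these values as follows. In bulk leaf tissue, fewer cells of a type and less RNA per cell cannot be told apart. The table holds differences and no levels, so the labelled tissue could not be checked against its markers. Of 18 markers of guard cells, myrosin cells, phloem, xylem and epidermis, 16 are listed, and their median difference of b'γ minus the complemented line was -0.47, with 1 higher and 3 lower by the largest-error contrast test. In b'γζ and b'γ sid2 the marker medians were -0.14 and 0.16 and in the complemented line -0.15. Of 8 reference genes 6 are listed, and their median was 0.18 in b'γ and -0.01 in the complemented line. Their differences of b'γ minus the complemented line ran from -0.35 for ACT2 to 0.78 for UBQ10. UBQ10 was itself higher by the same test. Centring this difference on the reference genes, a shift of 0.19, left 96 members higher by that test in place of 104. The part of cell composition in the values of the stretch was not tested.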

How the data were processed

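The authors' deposited table holds, for 18231 genes, 4 columns of log2 fold changes of apical parts against apical wild type, and 6 columns of the authors' deposited p-values for genotype, tissue and interaction, uncorrected and corrected. Base 2 is not named in the header and was derived from steps between the values. The p-values are over all 5 lines, and every listed gene has a corrected p for genotype below 0.05. Per the submitters' processing notes, bcl2fastq and DESeq were used with build TAIR10, versions not stated. Libraries were made with a TruSeq Stranded mRNA kit, per the labels' protocols. Aligner and counting are not given in the sources used here. The reference used for positions and sequences is TAIR10.1, RefSeq's update of TAIR10, whose nuclear chromosomes are the same. Depth is unknown, and 0 other per-sample columns were present.

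The sources used here do not state the authors' model, so a balanced linear model over 50 libraries was assumed. From the genotype and interaction p-values, F values were then computed on 4 and 40 degrees of freedom. With the apical line deviations they bound the residual variance, and the contrast of b'γ minus complemented was tested with the largest variance allowed, two-sided, with no size limit, at an adjusted p under 0.05 over the 25801 genes the authors tested (a number derived from the corrected p-values). These degrees of freedom were checked with the 159 genes whose value is exactly 0 in 3 comparisons. Of these, 69 had equal F of genotype and interaction within 2%, and the rest did not. That equality alone cannot check the degrees of freedom, because both terms share them. For 66 of the 69, the F of tissue, which has other degrees of freedom, was equal too. The step was run on data simulated under the same assumed model with independent pools. That run therefore cannot check the model or the independence of apical and basal pools. Python 3.11.15, numpy 2.4.6, pandas 2.3.3, scipy 1.17.1 and matplotlib 3.10.9 were used.

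Samples were grouped by genotype and leaf part as the labels give them. Members, role lists and markers were chosen with earlier results of these data known, and that the lines other than the complemented one were raised in the stretch was among those results. Named members were the 10 largest and 5 smallest differences of b'γ minus complemented, the 3 largest and 3 smallest values of each deposited comparison, the first and last 5 members, 5 listed neighbours beyond each bound, and the role lists. Alternatives were other variances, size limits, p limits, centrings and member sets.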

Additional observations from a re-analysis of the deposited data

Results flagged for a closer look

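The members with the largest and smallest differences between b'γ and the complemented line included 8 whose line differences themselves varied between apical and basal parts, by the authors' deposited corrected p-value of the interaction of genotype and leaf part. These p-values are from a model over all genes and lines and were 2.57e-18 for AT5G03550, 7.18e-11 for AT5G03610, 2.74e-10 for AT5G04860, 2.21e-05 for AT5G04390 and 6.32e-05 for NTMC2T1.3 (AT5G04220). They were 0.000235 for CSLA9 (AT5G03760), 0.00745 for ADR1-L2 (AT5G04720) and 0.0111 for CYP77A4 (AT5G04660). AT5G03550 was at 4.06 in apical parts of b'γ and at exactly 0 in the other 3 comparisons. The authors' deposited table gives no fold change in basal parts, so the direction of these interactions is not known. Over the 161 members, 36.0% had such an interaction, beside 42.4% of all listed genes.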

How the results depend on the processing

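No paired analysis was possible because the table holds no values per library, and for the same reason leaving out each replicate could not be run. Of the 161 members, 104 were higher in b'γ than in the complemented line, and this count ran from 70, with a 2-fold limit as well, to 125, with the smallest variance the p-values allow; it was 117 with basal line differences as large as apical ones, 101 centred on all listed genes, 96 centred on the reference genes and 89 without the first and last 10 members. The 1 member that was lower became 5 with equal basal differences, 8 with the smallest variance and 0 with a 2-fold limit as well. Members at least 2-fold higher than wild type numbered 77 in b'γ and 136 with no size limit. In b'γζ 81 became 133 at 1.5-fold and 155 with no limit, and in b'γ sid2 86 became 154 with no limit. In the complemented line 1 became 4 at 1.5-fold, 82 with no limit and 0 without the first and last 10 members. Of the 83 named members, CESA3 and AT5G05240 no longer passed when centred on all listed genes, and neither did these, PAL3, BIOF and AT5G05200 when centred on the reference genes. The smallest variance let 19 more pass and equal basal differences 12 more. No member that passed changed direction, but the differences of 4 that had not passed did when centred on the reference genes: NCS1 to -0.07, SBE2.2 to -0.18, MLS to -0.03 and AT5G04310 to -0.05, and SBE2.2 also when centred on all listed genes, to -0.01. A smaller variance or limit passes more genes. Centring takes the same amount from every difference, 0.19 for the reference genes and 0.02 for all listed genes. Without library values, the error behind each difference is a bound and not a measured spread, and for AT5G04390 and AT5G03550 the deposited p-values set no useful bound.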
